A study of Mus musculus with 12 samples.

Results

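Cone photoreceptors were followed here in single cells of the mouse retina after oxygen-induced retinopathy (OIR) and in room-air controls (NORM). The cells were selected on their own expression: a cell counted as a cone cell if it had at least 200 genes above 0 and at least 4 of the 8 cone genes Arr3, Opn1sw, Opn1mw, Pde6h, Gnat2, Pde6c, Gngt2 and Cngb3 above 0. Of 24772 cells with at least 200 genes in 12 libraries, 1511 met this rule, or 6.10%. All pups were of the C57B6 strain, and the RNA came from Drop-seq, which tags the 3′ ends of transcripts with a cell barcode and a unique molecular identifier (UMI). OIR pups were reared by a foster mother and kept in 75% oxygen between days 7 and 12, and NORM pups stayed in room air with their own mother. At P17 there were 1 rod-depleted and 2 whole-retina OIR libraries, against 1 rod-depleted and 1 whole-retina NORM library. At P14 there were 2 rod-depleted and 3 whole-retina OIR libraries, against 1 rod-depleted and 1 whole-retina NORM library. Whether any 2 libraries stem from different animals is not in the labels. The spread that p-values are set against is therefore that of libraries, and it may be technical only. The foster mother is part of the OIR group in every library, so rearing and oxygen cannot be told apart.

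Cones carry daylight and colour vision. Light isomerises the chromophore of a cone opsin, the opsin activates the cone transducin (Gnat2 with Gnb3 and Gngt2), transducin activates the cone phosphodiesterase (Pde6c, restrained by Pde6h), and the fall in cyclic GMP closes the channel built from Cnga3 and Cngb3. Arr3, the cone arrestin, then shuts off the opsin. Mouse cones make an S opsin (Opn1sw, short wavelengths) and an M opsin (Opn1mw, middle wavelengths). M opsin is the more abundant dorsally and S opsin ventrally, and many mouse cones hold both. In OIR, vessels of the central retina are lost in high oxygen, the retina becomes hypoxic back in room air, and new vessels grow out of place. Photoreceptors are among the largest consumers of oxygen in the retina.

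Levels below are means over the cone cells of a library, in UMIs per 10000 UMIs of a cell. Differences are log2 differences of that level plus 0.2, each ± its standard error, and they understate changes of low genes. The cone cells held 2098973 UMIs, with a median of 1071 UMIs and 739 genes a cell. A library gave 22 to 342 cone cells and 12286 to 445395 cone UMIs, and its median cone cell had 467 to 3184.5 UMIs. The whole-retina NORM library at P17 was the shallowest, with 27 cone cells and 12286 UMIs, and rod-depleted OIR replicate 2 at P14 had 22 cells and 17725 UMIs. Whole-retina NORM at P14 carries another replicate number in the table (8) than in its label (1), so its match is less sure. No cone cell shared its barcode with a cell of another library, against 14 shared barcodes among all cells. Xist, transcribed from the inactive X chromosome of females, was at 0 in the cone cells of 4 OIR libraries and 1 NORM library, and at 20.8 to 27.8 in the other 4 OIR libraries and 12.6 to 41.1 in the other 3 NORM libraries. The labels give no sex.

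The start regions of both opsin genes, of Ccdc136 and Samd7, which differed between cone cells richer in M and in S opsin, and of Drd4, the gene called between OIR and NORM, are shown first. No test below uses these sequences. They are windows from 250 bases before to 50 bases after a RefSeq transcript start (GRCm38.p6), 5′ to 3′ on the gene's strand. Capitals mark the letters AGGTCA, a core site of thyroid hormone receptors and other nuclear receptors, and TAATCC, a core bound by the photoreceptor factors CRX and OTX2, each on either strand. Opn1sw (chr6:29380464-29380763, minus strand) held AGGTCA at 2 places, and Samd7 (chr3:30746043-30746342, plus strand) held TAATCC once. Opn1mw (chrX:74127216-74127515, plus strand), Ccdc136 (chr6:29396325-29396624, plus strand) and Drd4 (chr7:141291768-141292067, plus strand) held neither. Of 32851 windows in the table, 16.3% held AGGTCA and 7.06% held TAATCC, so such matches are common, and they are letters in a window, not shown sites.
Opn1sw: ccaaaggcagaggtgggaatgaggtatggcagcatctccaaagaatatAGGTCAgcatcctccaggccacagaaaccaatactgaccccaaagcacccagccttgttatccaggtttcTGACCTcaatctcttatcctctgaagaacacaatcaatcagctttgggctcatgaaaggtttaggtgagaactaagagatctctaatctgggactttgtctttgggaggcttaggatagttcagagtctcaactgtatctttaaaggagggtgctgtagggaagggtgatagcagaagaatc
Opn1mw: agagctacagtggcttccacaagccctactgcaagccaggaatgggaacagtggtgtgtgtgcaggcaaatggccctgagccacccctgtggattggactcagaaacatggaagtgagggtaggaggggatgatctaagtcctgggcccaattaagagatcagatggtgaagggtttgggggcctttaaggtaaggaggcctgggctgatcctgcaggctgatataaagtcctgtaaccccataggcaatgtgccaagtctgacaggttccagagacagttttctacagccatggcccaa
Ccdc136: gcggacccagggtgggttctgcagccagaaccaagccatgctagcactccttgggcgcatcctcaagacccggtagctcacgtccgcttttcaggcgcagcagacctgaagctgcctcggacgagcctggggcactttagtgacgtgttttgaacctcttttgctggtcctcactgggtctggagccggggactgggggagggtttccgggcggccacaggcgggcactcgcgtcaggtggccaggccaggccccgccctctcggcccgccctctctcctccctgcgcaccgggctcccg
Samd7: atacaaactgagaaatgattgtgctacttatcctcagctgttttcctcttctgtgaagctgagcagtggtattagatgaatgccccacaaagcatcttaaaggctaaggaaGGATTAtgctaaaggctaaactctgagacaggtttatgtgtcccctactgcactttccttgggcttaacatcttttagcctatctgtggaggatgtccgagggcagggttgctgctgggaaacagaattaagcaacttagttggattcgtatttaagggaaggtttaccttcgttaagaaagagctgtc
Drd4: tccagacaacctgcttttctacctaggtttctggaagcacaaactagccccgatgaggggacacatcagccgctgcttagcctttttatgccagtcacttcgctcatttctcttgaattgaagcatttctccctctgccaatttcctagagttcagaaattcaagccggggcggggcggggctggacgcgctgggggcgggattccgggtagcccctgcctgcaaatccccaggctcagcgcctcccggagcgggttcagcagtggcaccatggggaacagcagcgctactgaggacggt

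The label of the cells was checked on genes that the rule did not use. Rcvrn, recoverin, a calcium sensor of rods and cones, was detected in 40.4% of the cells with 4 rule genes, 68.3% with 5, 85.3% with 6, 92.9% with 7 and 96.4% with 8. It was detected in 18.1% of the 371 cells just outside the rule, which had 3 rule genes and a median of 1863 UMIs, against 635 UMIs in the 151 cells just inside it with 4. Gnb3, the cone transducin beta subunit that ON bipolar cells also make, was detected in 67.55% of the cells with 4 rule genes and 71.97% of those with 3. Outside the rule Gnb3 was detected in 40.2% of cells with no rule gene, 49.4% with 1 and 66.3% with 2, so its share increased there too. Rcvrn was detected in 28.4% of cells with no rule gene, 24.6% with 1 and 20.5% with 2. The share of Rcvrn thus increased with the number of rule genes only among the cells that met the rule. Depth increased there as well, with medians of 551 UMIs at 5 rule genes, 862.5 at 6, 1219 at 7 and 1654 at 8. Outside the rule the median depth increased from 946 UMIs with no rule gene to 1863 with 3. The part of depth in the Rcvrn shares was not tested. Results were recomputed with at least 5 rule genes, which kept 1360 cells. Of the 1511 cells, 262 held at least 3 markers of another retinal type other than rods, and 688 held at least 3 rod markers.

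Cone cells differed from the other 21438 cells of the same libraries (at most 1 rule gene each) in many genes outside the rule, and this is a description without a test, since the rule chose the cells. Of 2079 genes with a mean level of at least 1 in cone cells, 173 were higher in cone cells in 12 of 12 libraries and at least 2-fold on average. Guca1a, the guanylate cyclase activator GCAP1, led with a mean of 32.4 in cone cells and 1.71 in all other cells. Cd59a, which restrains the complement attack complex, averaged 8.82 in cone cells and 0.345 in the others. Gckr, the regulator of glucokinase, averaged 5.70 in cone cells and 0.191 in the others. Kcne2, a potassium channel subunit, averaged 16.7 in cone cells and 1.58 in the others, and Thrb, the thyroid hormone receptor beta, 4.87 and 0.350. Cnga3, the channel partner of Cngb3, averaged 1.35 in cone cells and 0.00603 in the others. Otop3, a proton channel gene, averaged 2.47 in cone cells and 0.0183 in the others, and Agr2, a protein disulfide isomerase, 2.16 and 0.00918. Rbp3, the retinoid carrier between photoreceptors and pigment epithelium, averaged 21.9 in cone cells and 10.6 in the rod cells of whole retina, so it marked photoreceptors rather than cones.

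Of the rule genes, Arr3 alone separated the ages. Arr3 stood at 125, 126 and 114 in the 3 OIR libraries at P17, and at 88.0 and 74.5 in the 2 NORM libraries at P17. At P14 it stood at 62.1, 41.9, 38.1, 40.7 and 39.0 in the OIR libraries and at 55.2 and 46.6 in the NORM libraries. Every P17 library was above every P14 library, in OIR and in NORM, and no test is given because Arr3 chose the cells. No stated sequencing run held libraries of both ages, and the whole-retina OIR libraries at P17 have no run stated. Age and run therefore cannot be told apart. Opn1mw ranged over 62.7 to 85.0 at P17 (median 78.0) and 37.3 to 73.9 at P14 (median 55.2), so the ages overlapped. Opn1sw ranged over 45.9 to 137 at P17 and 47.1 to 92.4 at P14. Gnat2, Gngt2, Pde6c, Pde6h and Cngb3 had P17 medians of 37.3, 71.5, 21.9, 142 and 6.54, against P14 medians of 37.3, 78.4, 22.3, 141 and 7.87. One library stood apart: whole-retina NORM at P14 had a Pde6h level of 41.3, where the other 11 libraries had 112 to 181, and a Pde6c level of 9.89, where the others had 16.5 to 32.8. Its Gnat2 level of 39.0 and Gngt2 level of 61.8 lay within the range of the others.

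**Figure D1:**
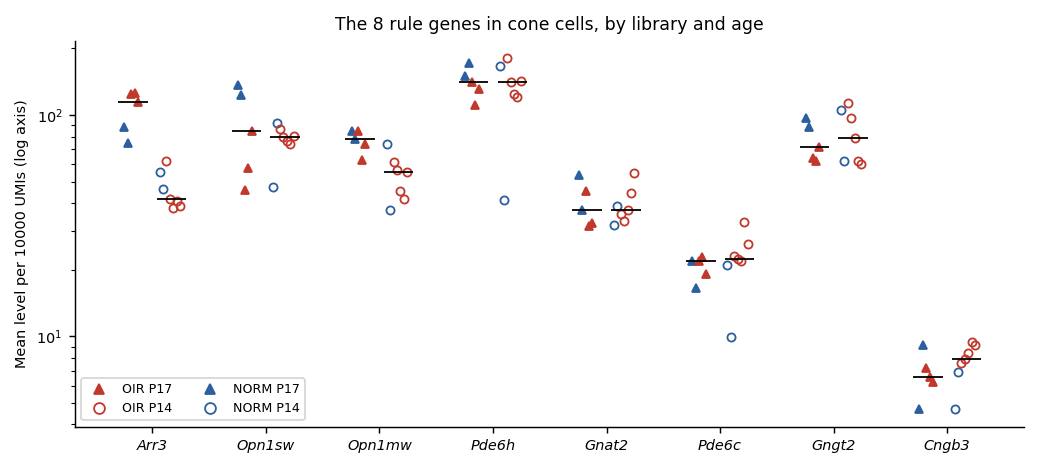
Mean levels of the 8 rule genes in cone cells, in UMIs per 10000 on a log axis, with 1 point per library (triangles P17, circles P14, red OIR, blue NORM) and bars at the median of each age. Arr3 lies between 74.5 and 126 at P17 and between 38.1 and 62.1 at P14, and the low Pde6h and Pde6c points at P14 belong to whole-retina NORM.

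The share of cells that were cone cells was compared between OIR and NORM with 1 value per library. Cone cells made up 5.64% ± 3.07 of cells in OIR libraries (SD, n = 8) and 6.77% ± 4.72 in NORM libraries (SD, n = 4). At P17 the shares were 7.22% in rod-depleted OIR and 3.93% and 2.60% in whole-retina OIR, against 13.7% in rod-depleted NORM and 4.75% in whole-retina NORM. At P14 they were 10.7% and 1.22% in rod-depleted OIR and 4.90%, 7.41% and 7.15% in whole-retina OIR, against 3.23% in rod-depleted NORM and 5.38% in whole-retina NORM. The exact 95% binomial intervals of these shares, which cover counting error only, reached from 0.764% to 1.84% in the lowest library and from 12.4% to 15.1% in the highest. The groups overlapped, and an exact two-sided permutation test within age and fraction gave p = 0.653 (72 arrangements, smallest possible p = 0.0139), or 0.653 after adjustment for the 2 such tests made. Without rod-depleted NORM at P17 the difference turned from -1.13 to 1.19 percentage points. That library also held 134 of the 371 cells just outside the rule. With every cell thinned to 500 UMIs the means were 5.65% ± 3.35 in OIR and 6.38% ± 4.28 in NORM (SD, n = 8 and 4). In dissociated tissue a share does not tell whether cones were fewer or other cells more, and depletion of rods changes the denominator.

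Opsins divided the cone cells into 547 with M opsin only, 710 with both, 215 with S opsin only and 39 with neither. Cells with both opsins made up 31.8% to 54.3% of the cone cells of a library. M opsin alone was detected in 60.7% of cone cells in rod-depleted OIR at P17, the highest share, and in 19.1% in whole-retina NORM at P14, the lowest. Among all other cells, 0.569% to 5.45% had an M-opsin UMI (median depth 418 to 1695.5 UMIs) and 0.797% to 7.06% an S-opsin UMI. Among cone cells 67.2% to 92.9% had an M-opsin UMI, at a median depth of 467 to 3184.5 UMIs. Both opsins are among the rule genes and the other cells have at most 1 rule gene, so the choice of cells fixes this gap and nothing is read from it.

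For the balance of the opsins, cells were chosen without them, by at least 3 of the other 6 rule genes (1686 cells). Opn1mw made up 46.3% ± 8.35 of opsin UMIs in OIR libraries (SD, n = 8) and 42.1% ± 14.2 in NORM libraries (SD, n = 4). At P17 it made up 64.4% in rod-depleted OIR and 50.5% and 46.5% in whole-retina OIR, against 38.5% in rod-depleted NORM and 37.2% in whole-retina NORM. All 3 OIR values at P17 lay above both NORM values. At P14 it made up 41.7% and 43.3% in rod-depleted OIR and 45.5%, 37.0% and 41.4% in whole-retina OIR, against 62.7% in rod-depleted NORM and 30.1% in whole-retina NORM, so the 2 NORM libraries at P14 lay on either side of every OIR library. The exact two-sided permutation test within age and fraction gave p = 0.597 over 72 arrangements, or 0.653 adjusted over the 2 tests. The labels do not say which region of the retina entered a library, and the part of region in these values was not tested.

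**Figure D2:**
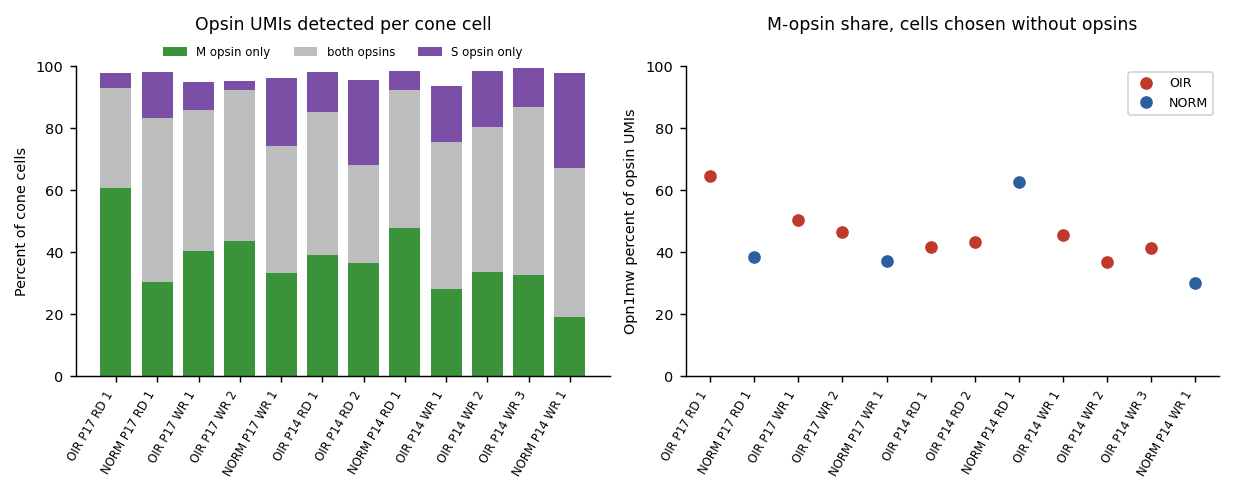
Left, percent of cone cells with UMIs of the M opsin only, of both opsins and of the S opsin only, by library (RD rod-depleted, WR whole retina). Right, Opn1mw as percent of opsin UMIs in cells chosen without the opsins, with 1 point per library (red OIR, blue NORM); the points run from 30.1% in whole-retina NORM at P14 to 64.4% in rod-depleted OIR at P17.

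M-opsin-positive cone cells were then set against S-opsin-only cone cells of the same libraries, to ask which genes other than the opsins separate them. In the 4 libraries with at least 20 cells of each class (687 M-positive and 148 S-only cells), 40 of 6898 genes passed (0.58%), 29 higher and 11 lower in M-positive cells, by limma with the library as a block and Benjamini-Hochberg adjustment. With 4 pairs there are 3 residual degrees of freedom, and the small p-values rest on the spread that limma shares across genes. S-only cells also had fewer UMIs (median 820, against 1133 in M-positive cells), and a low gene can be at 0 in S-only cells by depth alone. A second split, added after the data were seen, set cells with more M than S opsin UMIs (711) against cells with more S than M (608) in 9 libraries, with medians of 1094 and 1076 UMIs over all libraries. There 29 of 7027 genes passed (0.413%), 10 higher and 19 lower in M-richer cells. Both splits use the same cells, so the second is not independent of the first. The 12 genes that passed in both, in the same direction, are 30% of the 40 and 41.4% of the 29, and they are described here. With each of the 4 libraries of the first split left out in turn, Ccdc136, Smug1 and Samd7 passed in 4 of 4 fits and Thrb and Mgst3 in 3. Ppa1, Gzmm, Calu, Srcin1 and Sag passed in 2, Ralyl in 1 and Clca3 in 0, so these calls were lost when some single libraries were left out. Each of these genes kept the sign of its difference in all 4 fits. The part of the smaller number of libraries in the lost calls was not tested.

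Ccdc136, which codes for a coiled-coil protein, was the sharpest gene of S-richer cells, many of which also held M opsin. In M-richer cells of the 9 libraries it lay between 1.59 and 7.42 (median 3.49), and in S-richer cells between 12.2 and 27.0 (median 21.4). The ranges did not overlap, and M-richer cells were lower in 9 of 9 libraries (log2 difference -2.42 ± 0.13, adjusted p = 7.1e-23 by limma; -1.35 ± 0.15 and 4.1e-16 for M-positive against S-only cells). Ccdc136 lies beside the S opsin gene on chromosome 6 in GRCm38 (GENCODE M21). Opn1sw spans chr6:29376671-29388468 on the minus strand. The Opn1sw transcript start shown above lies inside that span. Ccdc136 spans chr6:29396309-29426994 on the plus strand and starts 7841 bases beyond the end of the Opn1sw span, so the 2 starts are farther apart. Calu, which codes for calumenin, a calcium-binding protein of the secretory pathway, lies on the other side at chr6:29348069-29377110 on the plus strand and overlaps Opn1sw by 440 bases. Calu had a median of 0.634 in M-richer and 2.10 in S-richer cells and was lower in M-richer cells in 8 of 9 libraries (-1.29 ± 0.25, adjusted p = 0.0014 by limma). The genes overlap on opposite strands and the strand setting of the counting is not given in the sources used here, so the Calu value is uncertain. Genes at lower levels were also higher in S-richer cells: Ralyl, a neuronal RNA-binding protein (median 0.182 in M-richer and 1.35 in S-richer cells), Srcin1, an inhibitor of Src kinase (0.0641 and 0.574), and Clca3 (0.537 and 1.68), each lower in M-richer cells in 9 of 9 libraries.

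Smug1, a glycosylase that removes uracil from DNA, was the sharpest gene of M-richer cells. It lay between 6.74 and 23.8 in M-richer cells (median 10.8) and between 0.302 and 4.49 in S-richer cells (median 1.80). The ranges did not overlap, and the difference was 2.60 ± 0.16 (adjusted p = 1.9e-19 by limma; 1.68 ± 0.28 and 2.2e-06 for M-positive against S-only cells). Samd7, a photoreceptor protein of Polycomb silencing, had medians of 3.26 in M-richer and 1.16 in S-richer cells, and was higher in M-richer cells in 9 of 9 libraries (1.21 ± 0.20, adjusted p = 0.00015). Thrb, whose cone isoform is needed for M opsin in mice, lay between 3.01 and 12.7 in M-richer cells (median 5.51) and between 1.92 and 7.11 in S-richer cells (median 3.86). Its ranges overlapped between libraries, but M-richer cells were higher in 8 of 9 (0.57 ± 0.14, adjusted p = 0.046; 1.24 ± 0.28 and 0.0050 for M-positive against S-only cells). Mgst3, a microsomal glutathione transferase, had medians of 3.19 in M-richer and 1.65 in S-richer cells, Ppa1, a pyrophosphatase, 4.55 and 2.43, and the granzyme gene Gzmm 4.29 and 1.52. The first and second of these were higher in M-richer cells in 9 of 9 libraries and Gzmm in 8 of 9.

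**Figure D3:**
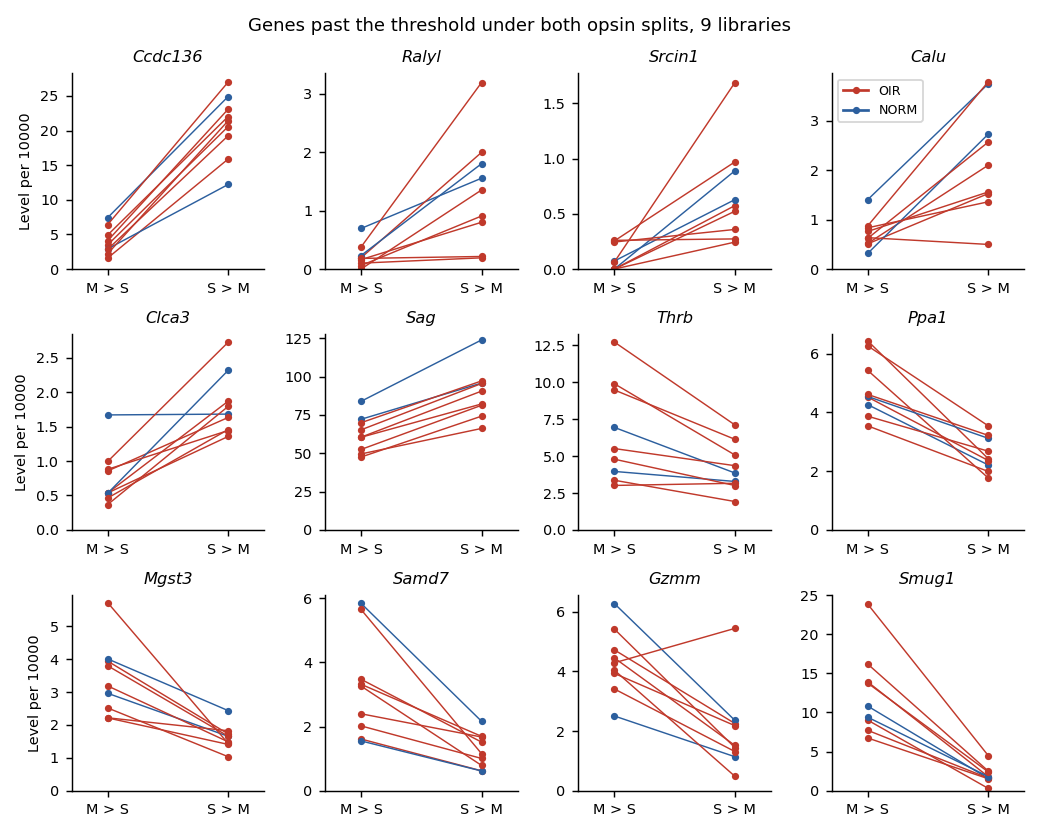
Levels per 10000 UMIs of the 12 genes that passed in both opsin splits, in cone cells with more M than S opsin UMIs (left of each panel) and with more S than M (right), with 1 line per library (9 libraries; red OIR, blue NORM). Ccdc136 runs from 1.59 to 7.42 on the left and from 12.2 to 27.0 on the right, and Smug1 from 6.74 to 23.8 on the left and from 0.302 to 4.49 on the right.

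Sag, the arrestin of rods that mouse cones also make, passed in both splits as well. Its median was 60.5 in M-richer and 90.5 in S-richer cells, and it was lower in M-richer cells in 9 of 9 libraries (-0.52 ± 0.05, adjusted p = 1.8e-12 by limma). The sum of the other 9 rod markers moved the same way. It was 59.4 to 123 in M-richer cells (median 87.9) and 77.5 to 147 in S-richer cells (median 102), higher in M-richer cells in 1 of 9 libraries. In rod-depleted retina all 10 rod markers, Sag included, summed to 124 to 182 in cone cells and to 3.14 to 32.8 in all other cells. How much of such a sum is RNA of rods and how much of the cone cells themselves was not tested. The part of rod RNA in the Sag value was not tested. Guca1a passed only the second split, with 17.6 to 33.3 in M-richer cells (median 21.0) and 30.4 to 54.4 in S-richer cells (median 39.2), lower in 9 of 9 libraries (-0.74 ± 0.07, adjusted p = 5.4e-12 by limma). Cabp5, a calcium-binding protein used here as a cone bipolar marker, also passed only there and had medians of 1.41 in M-richer and 3.02 in S-richer cells. The other 6 cone bipolar markers summed to a median of 1.46 in M-richer and 2.19 in S-richer cells and were higher in M-richer cells in 4 of 9 libraries. Fos, an immediate early gene, likewise passed only the second split. It had medians of 5.39 in M-richer and 3.43 in S-richer cells and was higher in M-richer cells in 9 of 9 libraries (adjusted p = 0.0082 by limma).

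The oxygen comparison set OIR against NORM in cone cells over all 12 libraries, with age and fraction in the model. Of 7025 genes, 1 passed (0.0142%) by limma with Benjamini-Hochberg adjustment, and 556 had an unadjusted p under 0.05. The gene was Drd4, the dopamine D4 receptor of photoreceptors, whose RNA follows a daily rhythm in the mouse retina. Drd4 stood at 2.07 in rod-depleted OIR at P17 and at 1.47 and 1.14 in whole-retina OIR at P17, against 0.222 in rod-depleted NORM and 0 in whole-retina NORM. At P14 it stood at 4.41 and 2.93 in rod-depleted OIR and at 4.65, 1.77 and 1.71 in whole-retina OIR, against 0.356 in rod-depleted NORM and 0.962 in whole-retina NORM. All 8 OIR libraries lay above all 4 NORM libraries, which 24 of the 7025 genes did (0.342%), while 10 genes had all OIR libraries below (0.142%).

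The difference in Drd4 was 2.26 ± 0.38 (adjusted p = 0.012 by limma). In whole UMIs, cone cells of the OIR libraries held 280 among 1423739 and those of the NORM libraries 23 among 675234, or 1.97 and 0.341 per 10000. The library at 0 had 12286 cone UMIs, where a level of up to 2.44 could go unseen (3 UMIs), so its 0 carries little weight; without it the difference was 2.02 and the adjusted p 0.029. The 2 pairs of OIR and NORM libraries on 1 sequencing run, both at P14, differed by 2.49 in rod-depleted and 2.06 in whole retina. The rod-depleted pair rests on 5 Drd4 UMIs among 17725 in OIR replicate 2 and 3 among 54350 in NORM, so its value carries little weight. The whole-retina pair had 35 among 94852 in OIR and 15 among 178884 in NORM. The call was lost without rod-depleted NORM at P14 (adjusted p = 0.31), without the first rod-depleted OIR library of P14 (0.084) and without rod-depleted OIR at P17 (0.12). It was also lost with the run as a term (0.15), in whole retina only (0.35), with no filter on low genes (0.47) and with a pseudocount of 0.05 (0.11), all by limma. The difference stayed between 2.02 and 2.74 over the 12 libraries left out in turn. OIR libraries with Xist at 0 had Drd4 levels of 4.41, 1.71, 1.47 and 1.14, and the OIR libraries with Xist had 2.93, 4.65, 1.77 and 2.07. Every OIR library lay above every NORM library, so any split of the OIR libraries does too. The part of sex in the Drd4 value was not tested.

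Drd4 was also read in other cells. Rod cells, from whole retina only, had 3.01 and 2.75 in OIR at P17 and 4.03, 2.31 and 2.56 in OIR at P14, against 2.99 in NORM at P17 and 3.84 in NORM at P14. In rod-depleted retina all other cells had 0.132, 0.0987 and 0.0927 in OIR and 0.0653 and 0.0556 in NORM, with every OIR library above both NORM libraries there too, at levels far below the 2.07 to 4.41 of OIR cone cells. Over all other cells the oxygen difference of Drd4 was 0.12 ± 0.21. The difference between the oxygen effect in cone cells and in all other cells was 2.14 ± 0.36 for Drd4 (adjusted p = 0.033 by limma), the 1 gene of 7713 to pass (0.013%), with 526 at an unadjusted p under 0.05. That call held in 2 of the 12 fits that left out a library and is thus a weak one. Against rod cells, in 7 whole-retina libraries, Drd4 differed by 2.22 ± 0.39 but did not pass (adjusted p = 0.18), nor did any of 7241 genes (0%), with 1056 at an unadjusted p under 0.05.

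**Figure D4:**
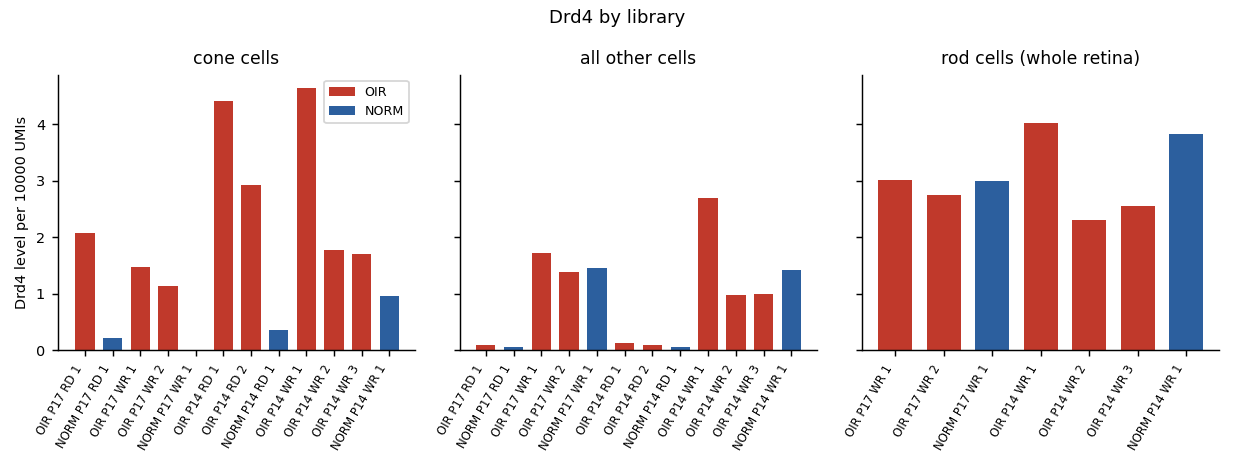
Drd4 level per 10000 UMIs by library in cone cells, in all other cells and in rod cells of whole retina (red OIR, blue NORM; RD rod-depleted, WR whole retina). In cone cells the OIR bars reach 1.14 to 4.65 and the NORM bars 0 to 0.962, while in rod cells the OIR bars reach 2.31 to 4.03 and the NORM bars 2.99 and 3.84.

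Other clock-linked genes were looked at beside Drd4. Of 18 tested members of the clock list, Drd4 was the 1 that passed, and the list's median difference was 0.30, against 0.13 over all genes. Tef, a transcription factor of the clock's output, lay at 0.875 to 2.23 in OIR libraries and 0 to 1.63 in NORM libraries (1.19 ± 0.44), and Nr1d2, a clock repressor, at 0.567 to 2.75 in OIR and 0 to 1.43 in NORM (1.03 ± 0.43). Neither passed (adjusted p = 0.59 each by limma). The labels give no hour of collection, and its part in the Drd4 value was not tested.

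The genes next in rank had adjusted p-values of 0.59 and did not pass. Pptc7, a mitochondrial phosphatase, lay at 0.299 to 1.74 in OIR libraries and 0 to 0.241 in NORM libraries (1.72 ± 0.45), and Optn, optineurin, an autophagy receptor, at 0.394 to 1.43 in OIR and 0 to 0.163 in NORM (1.52 ± 0.44). For both, all 8 OIR libraries were above all 4 NORM libraries, as in 24 of the 7025 genes (0.342%). In cone cells 1 UMI was worth 0.814 in whole-retina NORM at P17 and 0.184 in rod-depleted NORM at P14. Low NORM values in those libraries therefore carry little weight. Atp2b1, a calcium pump of the plasma membrane, differed by 0.98 ± 0.23, with 7 of 8 OIR libraries above every NORM library, and Rpgrip1, a protein of the photoreceptor cilium, by 0.64 ± 0.18 with 6 of 8. Sag lay at 32.7 to 76.4 in OIR and 67.0 to 108 in NORM (-0.53 ± 0.15). The 10 rod markers together, Sag among them, summed to 124 to 213 in OIR (median 154) and 165 to 311 in NORM (median 184). Sag is thus part of this sum, and nothing about Sag is read from it. The part of rod RNA in the Sag value was not tested.

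Genes of the low-oxygen response were read in cone cells beside all other cells of the same libraries. Of 26 tested hypoxia and HIF target genes, none passed in cone cells, 1 had an unadjusted p under 0.05, and the median difference was 0.08, against 0.13 over all genes. In all other cells, fitted alone, 1 of 38 passed, and 2 of all 8084 genes did (0.0247%). At an unadjusted p under 0.05, 19 of the 38 were higher, against 596 of all genes (7.37%), and the list's median was 0.38, against 0.02 over all genes. Vegfa, the main signal for new vessels, lay at 1.30 to 3.21 in cone cells of OIR libraries and 1.23 to 1.59 in those of NORM libraries (0.59 ± 0.32, adjusted p = 0.61). In all other cells its difference was 0.91 ± 0.19 (adjusted p = 0.075). Ndufa4l2, a HIF target that replaces a respiratory chain subunit, was at 0.0337 to 0.940 in OIR cone cells and at 0 to 0.175 in NORM cone cells (1.29 ± 0.46, adjusted p = 0.59), with 3 of the 4 NORM libraries at 0. Bnip3, a HIF target of mitochondrial removal, lay at 0.450 to 1.01 in OIR cone cells and at 0.337 to 2.97 in NORM cone cells, the highest value coming from the shallow whole-retina library at P17. In all other cells Bnip3 differed by 1.11 ± 0.21 (adjusted p = 0.075), and its effect in cone cells minus that in all other cells was -1.30 ± 0.32 (adjusted p = 0.69). For the 31 hypoxia genes in that test of the difference none passed, 5 had an unadjusted p under 0.05 with the lower effect in cone cells, and the median was -0.30, against 0.10 over all 7713 genes.

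Of 29 glycolysis and lactate genes tested, none passed in cone cells (median difference 0.02, against 0.13 over all genes). In all other cells 2 of 32 passed. These were the only 2 of all 8084 genes to pass there (0.0247%), so the 1 hypoxia gene that passed is among them. At an unadjusted p under 0.05, 7 of the 32 were higher, against 596 of all genes (7.37%), and the median was 0.09, against 0.02. In the test of the difference between cone cells and all other cells none of 31 passed (median -0.28, against 0.10). Slc16a1, a lactate transporter, lay at 0.909 to 2.08 in OIR cone cells and 0 to 1.01 in NORM cone cells (1.10 ± 0.41, adjusted p = 0.59 by limma), and its difference in all other cells was -0.26 ± 0.19. The effect of Slc16a1 in cone cells minus that in all other cells was 1.37 ± 0.42, which did not pass (adjusted p = 0.69). None of 57 nuclear respiratory chain genes passed (median -0.18), nor of 10 mitochondrially encoded genes (median -0.28), nor of 68 ribosomal protein genes (median -0.27), all against a median of 0.13 over all genes. The nuclear respiratory chain and mitochondrial medians in all other cells were -0.27 and -0.26, against 0.02.

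**Figure D5:**
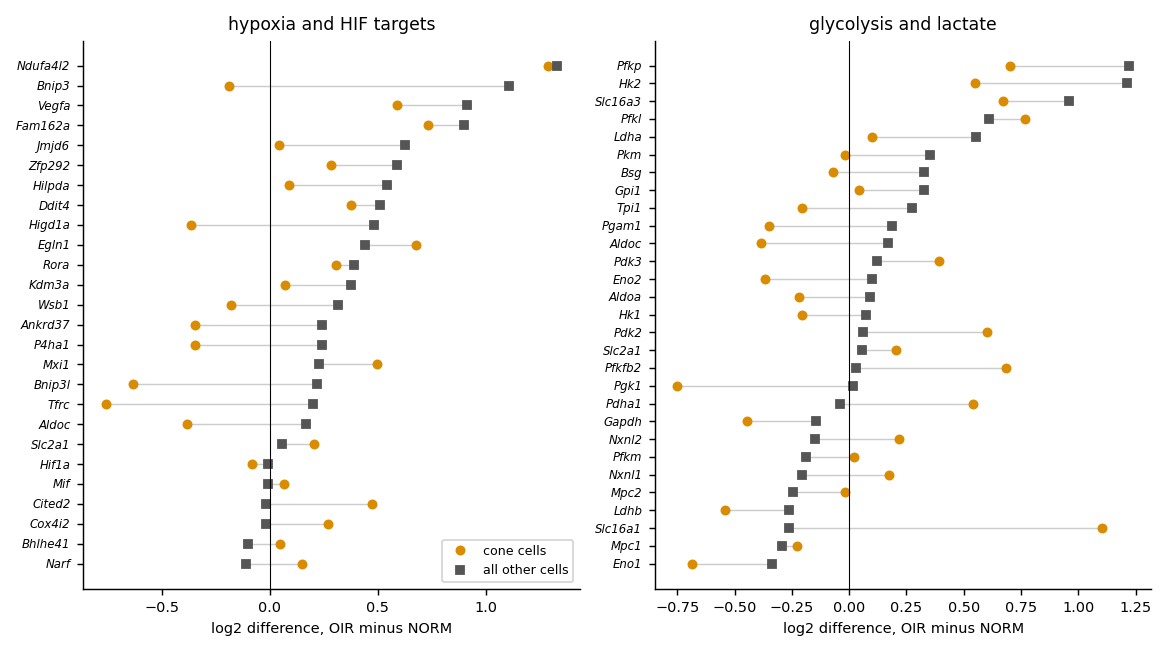
Log2 difference of OIR minus NORM in cone cells (circles) and in all other cells of the same libraries (squares), 1 row per gene of the hypoxia list (left) and the glycolysis list (right) tested in both. In cone cells Ndufa4l2 and Vegfa lie at 1.29 and 0.59, and in all other cells at 1.33 and 0.91.

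Genes of the cone's own machinery gave no call in the oxygen comparison. None of 26 tested phototransduction genes outside the rule passed (median 0.08), nor of 20 photoreceptor transcription factors (median 0.19), 33 outer segment and cilium genes (median 0.11) or 31 synapse genes (median 0.10), against 0.13 over all genes. Rax, a retinal homeobox factor, had the lowest p of the transcription factors (1.07 ± 0.49, adjusted p = 0.59 by limma). Stress lists gave no call either: the unfolded protein response (21 genes, median 0.47), heat shock (21, median 0.19), immediate early genes (16, median 0.49), injury genes (14, median 0.26) and oxidative stress genes (23, median 0.02). Mt1, a metallothionein, differed by 1.27 ± 0.43, Hsph1, a chaperone, by 0.83 ± 0.29, Klf6, an early response factor, by 1.20 ± 0.43, and Stat3, a factor of cytokine signalling, by 1.07 ± 0.45, all with an adjusted p of 0.59 by limma. None of 8 tested interferon and antigen presentation genes passed (median 0.11), and none of 6 vessel and axon guidance genes (median 0.07).

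No gene of 7025 passed for P17 against P14 (0%), with 347 at an unadjusted p under 0.05. Here too age cannot be told apart from sequencing run, since no stated run held libraries of both ages. The lowest adjusted p was 0.086, for Gng13, a G protein subunit of ON bipolar cells (1.66 ± 0.32), and for GM26924 (-1.72 ± 0.34). Egr1, an immediate early factor, lay at 2.24 to 10.4 at P17 and 4.96 to 13.2 at P14 (-1.04 ± 0.28, adjusted p = 0.62 by limma). Of 16 tested immediate early genes, 7 had an unadjusted p under 0.05, all lower at P17, and the median difference was -0.57, against -0.03 over all genes, but none passed. Nr1d1, a clock repressor, lay at 1.38 to 1.93 at P17 and 0.339 to 1.01 at P14, with all 5 P17 libraries above all 7 P14 libraries, as in 18 of the 7025 genes (0.256%) (1.19 ± 0.35, adjusted p = 0.89). Aldoc, a glycolytic aldolase, lay at 2.19 to 5.02 at P17 and 0.765 to 2.05 at P14 (1.19 ± 0.31, adjusted p = 0.60). None of 8 rod bipolar markers passed for age. They summed to 5.87 to 29.1 at P17 (median 11.1) and 3.90 to 17.5 at P14 (median 9.12), and their part in the Gng13 value was not tested. Without the 2 libraries of under 30 cone cells, a setting added after the data were seen, 8 genes passed, among them Gng13.

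The oxygen effect at P17 minus that at P14 gave no call among 7025 genes (0%), with 615 at an unadjusted p under 0.05 and a median of 0.35 over all genes. Without rod-depleted NORM at P17 566 genes passed, and NORM at P17 was then the shallow whole-retina library alone.

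Rod depletion changed what the cone cells' libraries held of rod RNA. Of 7025 genes 12 passed (0.171%) for rod-depleted against whole retina, 2 higher and 10 lower after depletion, with 588 at an unadjusted p under 0.05. Gnat1, rod transducin, lay at 0 to 0.806 after depletion and 3.0 to 24.2 in whole retina (-3.71 ± 0.42, adjusted p = 5.3e-06 by limma). The lower genes also included Cnga1, Gnb1, Cngb1, Pde6b and Slc24a1 of rod phototransduction, the rod transcription factors Nrl and Nr2e3, and Samd11. In whole retina all other cells held Gnat1 at 21.2 to 47.3. Pcp2, a rod bipolar marker, was higher after depletion, at 2.64 to 14.7 after depletion, against 1.02 to 4.35 in whole retina (1.79 ± 0.31, adjusted p = 0.0027), and all other cells held it at 53.5 to 84.1 after depletion and 11.4 to 44.1 in whole retina. Hbb-bs, a globin of red blood cells, was higher as well, at 0.175 to 5.70 after depletion, against 0.0192 to 0.890 in whole retina (2.37 ± 0.49, adjusted p = 0.028). With each of the 12 libraries left out in turn, Hbb-bs passed in 5 fits, Nr2e3 in 3, Nrl in 6 and Samd11 in 9, and the other called genes named here in 12. Sag, by contrast, lay at 32.7 to 101 in cone cells of rod-depleted retina, where all other cells held 0.335 to 5.60, and at 59.2 to 108 in cone cells of whole retina.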

How the data were processed

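Drop-seq libraries of mouse retina were deposited by the authors as 1 table of 21408 genes by 31271 cells in natural log units: taken back from the log, each cell sums to 10000, so the deposited natural log values are ln(1 + UMI count / cell total × 10000), per the values themselves. STAR 2.4.0, bcl2fastq and the build mm10 or GRCm38 are named in the submitters' processing notes. The annotation, the strand setting and any removal of doublets are not given there. Each column name gives condition, age and fraction, from which its library was taken; 5799 columns in 7 sets fit no library here and were not used. Whole UMIs, recovered within 0.05, served for depth, opsin classes and intervals.

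Per library, values were averaged over cone cells and tested as log2(level + 0.2) with limma 3.58.1 (R 4.3.3, moderated statistics with a trend), for genes with a mean of at least 0.2 and above 0 in at least 3 libraries, without the 8 rule genes; Benjamini-Hochberg adjustment covered all genes tested, with a threshold of 0.05, two-sided. Rod cells had at least 3 of 8 rod genes and at most 1 rule gene. Shares were compared by exact permutation within age and fraction (Python 3.11.15). The pipeline was tested on simulated data. The cells, the 17 gene lists and the marker lists were chosen with earlier results of these data known. Named genes were those past the threshold (the 15 largest each way if over 30), the 15 lowest p-values where under 10 passed, and the 4 lowest p-values per list in the oxygen comparison; a few further genes were picked after their values were seen, among them Bnip3, Xist and the genes passing the added opsin split. Alternatives were other pseudocounts and filters, at least 5 rule genes, summed UMIs, thinned cells, array weights, run as a term, doublet-like cells removed and libraries left out. No doublet caller was run. Some genes that the rule for named genes picks are not reported here. Gene names came from GENCODE M21 and RefSeq (21032 matched).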

Additional observations from a re-analysis of the deposited data

Results flagged for a closer look

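Drd4 differed in its oxygen effect between cone cells and all other cells by 2.14 on the log2 scale, and the test of that difference passed; under the alternatives it passed in 5 of 16, and in 2 of the 12 fits that left out a library. Single libraries far from the others of their group were found for 3 group values, of 60 values examined; by chance about 1 in 20 would be. Rpgrip1 stood at 30.5 in whole-retina NORM at P14, where the next NORM library had 16.9. Sag stood at 32.7 in rod-depleted OIR replicate 2 at P14, a library of 22 cone cells, next to 57.2. Ndufa4l2 stood at 0.175 in rod-depleted NORM at P17, the other NORM libraries being at 0.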

How the results depend on the processing

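No paired analysis was possible because, by replicate number, OIR and NORM share fewer than 2 numbers within an age and fraction; the 2 pairs on a shared run are given with Drd4, and the run was tried as a term. In the oxygen comparison 0 genes passed with no filter on low genes, with a pseudocount of 0.05, with the run as a term in place of age and in whole retina only; array weights gave 5 and cells thinned to 500 UMIs gave 8, and leaving out a library gave 0 to 1. Drd4 passed in 17 of 24 settings, with differences from 1.26 to 2.96. For age, a pseudocount of 1 gave 2 genes, leaving out a library 0 to 2, and leaving out the 2 libraries of under 30 cone cells 8. For fraction, a pseudocount of 1 gave 20, no filter 6, and leaving out a library 8 to 24 (24 when the first rod-depleted OIR library of P14 was left out). The oxygen effect at P17 minus that at P14 gave 0 to 566 with a library left out, and 4 without rod-depleted NORM at P14. M-positive against S-only gave 2 with no filter and 13 to 25 with a library left out, the fewest without rod-depleted NORM at P17; Rgs5, Lamtor1 and Malat1 turned to -0.042, -0.18 and 0.069 in the added split. For cone cells against all other cells, no filter gave 0, at least 5 rule genes 2, the fit without the 2 small libraries 2, and leaving out a library 0 to 2. Against rod cells leaving out a library gave 0 to 2314, the most without whole-retina NORM at P14, when 1 shallow NORM library remained. Hspa8, a chaperone, ranged over -0.36 to 1.40 with a library left out. The cone share differed by -2.31 to 1.19 percentage points with a library left out. The causes were not tested. The fits without the 2 small libraries and the second opsin split were chosen after seeing the data. In the shallowest library 1 UMI was worth 0.814 per 10000, so low genes could not be read there.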

Other observations

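Some cone genes outside phototransduction were detected in every library. Krt18, a keratin, averaged 4.82 in cone cells and 0.384 in all other cells, and Pgc, the gene of the digestive protease precursor progastricsin, 4.79 and 0.176. Eif3b, a translation initiation factor subunit, averaged 4.26 in cone cells and 0.333 in all other cells, while Gulo, the enzyme of the last step of vitamin C synthesis in mice, averaged 1.88 and 0.0586. Each was higher in cone cells in 12 of 12 libraries. The rule chose these cells on other genes, so the values are a description.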
